A study of Homo sapiens with 10 samples.

Results

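The genes encoding mitochondrial ribosomal proteins were examined in RNA-seq of hPGCLCs. Genes were taken by symbol, MRPL or MRPS followed by a number and, where present, a letter from A to C, which gave 87 entries of the deposited table. Of these, 78 were single genes on the reference chromosomes, out of 64940 genes kept in the table. The other 9 entries were further copies of 4 of the same genes, listed at 0 in all 4 libraries, and 6 of them carried the symbol MRPS18B. All 78 genes passed the filter on low values, a mean TPM no lower than 1, where TPM is a gene's share of a library's transcripts, corrected for transcript length and scaled to a total of 1000000. The cells came from the hESC line H9, an established human embryonic stem cell line. The 2 oeDAZL libraries are labelled as hPGCLCs, germ cell-like cells made in culture, that overexpress DAZL, an RNA-binding protein of germ cells. The 2 control libraries are labelled as wild type and spontaneously differentiated, whereas the description of the series and the study's own account of its RNA-seq call them hPGCLCs. In the study's protocol hESCs were exposed to BMP4 and BMP8a over 6 days and the DAZL construct was delivered by lentivirus after the first hours. In the study's overexpression experiments the control cells were given a GFP vector in the same medium, which the labels of these libraries do not state. None of the labels says that replicates were separate cultures, so P-values measure the spread between these libraries only.

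Mitochondria keep their own ribosome, which translates the few messages of mitochondrial DNA, all of them for subunits of the respiratory chain and ATP synthase. Its rRNAs are made inside the organelle, whereas all of its proteins are encoded by nuclear genes, translated in the cytosol and imported. The small subunit holds the decoding site and the large subunit the site of peptide bond formation, and both carry many proteins with no counterpart in bacteria. Among the 78 genes, 26 encode proteins of the small subunit, 16 of them with a bacterial counterpart and 10 specific to mitochondria. A further 51 encode proteins of the large subunit, 30 with a bacterial counterpart and 21 specific to mitochondria, and these 51 include MRPS30 and MRPS18A despite their symbols. The remaining gene, MRPS36, was named as a ribosomal protein but its product is known as a component of the 2-oxoglutarate dehydrogenase complex. The genes were spread over 21 chromosomes.

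Promoters of these genes were searched for short motifs, which the choice of genes did not use. RefSeq promoter windows on GRCh38.p14, from 250 bases before to 50 bases after a transcription start, were matched by symbol to 69 of the 78 genes, which had 85 windows in all. The windows were searched on both strands for the core of ETS factors such as GABP (CCGGAAG or CTTCCGG), YY1 (ATGGCGG or CCGCCAT), NRF1 (GCATGCGC or GCGCATGC), SP factors (GGGCGG or CCGCCC) and the TATA box (TATAAA or TTTATA). Matches of different motifs can overlap. MRPL2, MRPL10, MRPL13, MRPL15, MRPL21, MRPL23, MRPL35, MRPS28 and MRPS36 were not matched. The stretches below run from 70 bases before to 30 bases after the start, 5′ to 3′ on the strand of the gene, with every match in capitals. They are shown for the 9 genes whose level differed between groups at an unadjusted P of at most 0.05 and then for the 5 genes with the highest level.
MRPL41, chr9:137551809-137551908, plus strand: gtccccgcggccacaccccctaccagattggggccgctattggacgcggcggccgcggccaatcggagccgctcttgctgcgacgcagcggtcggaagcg
MRPL34, chr19:17305802-17305901, plus strand: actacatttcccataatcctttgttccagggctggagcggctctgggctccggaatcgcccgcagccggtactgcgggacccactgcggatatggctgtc
MRPL20, chr1:1407264-1407363, minus strand: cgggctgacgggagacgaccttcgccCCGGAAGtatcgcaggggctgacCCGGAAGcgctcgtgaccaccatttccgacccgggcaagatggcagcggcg
MRPL44, chr2:223957393-223957492, plus strand: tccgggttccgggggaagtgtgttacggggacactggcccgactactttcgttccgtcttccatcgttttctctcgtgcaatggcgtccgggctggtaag
MRPL18, chr6:159790397-159790496, plus strand: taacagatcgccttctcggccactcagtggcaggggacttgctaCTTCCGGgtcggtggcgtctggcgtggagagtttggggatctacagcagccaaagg
MRPS35, chr12:27710762-27710861, plus strand: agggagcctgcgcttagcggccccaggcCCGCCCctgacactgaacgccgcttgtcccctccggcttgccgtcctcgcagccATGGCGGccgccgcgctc
MRPL32, chr7:42932306-42932405, plus strand: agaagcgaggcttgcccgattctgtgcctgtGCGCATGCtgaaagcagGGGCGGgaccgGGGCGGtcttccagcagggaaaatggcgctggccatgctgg
MRPL11, chr11:66438819-66438918, minus strand: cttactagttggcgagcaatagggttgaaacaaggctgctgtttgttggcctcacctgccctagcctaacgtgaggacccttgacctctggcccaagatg
MRPS24, chr7:43869488-43869587, minus strand: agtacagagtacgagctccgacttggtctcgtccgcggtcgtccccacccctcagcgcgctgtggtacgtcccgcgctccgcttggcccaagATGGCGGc
MRPL51, chr12:6493233-6493332, minus strand: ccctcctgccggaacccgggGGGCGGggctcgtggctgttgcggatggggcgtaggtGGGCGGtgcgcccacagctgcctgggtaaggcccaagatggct
MRPL12, chr17:81703297-81703396, plus strand: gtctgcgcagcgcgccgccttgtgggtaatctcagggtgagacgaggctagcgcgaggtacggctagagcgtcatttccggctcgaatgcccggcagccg
MRPL28, chr16:370509-370608, minus strand: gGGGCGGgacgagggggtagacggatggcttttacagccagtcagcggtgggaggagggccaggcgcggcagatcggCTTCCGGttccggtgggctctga
MRPS7, chr17:75261809-75261908, plus strand: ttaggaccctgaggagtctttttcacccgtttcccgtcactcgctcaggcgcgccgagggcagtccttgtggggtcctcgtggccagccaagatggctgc
MRPL3, chr3:131502942-131503041, minus strand: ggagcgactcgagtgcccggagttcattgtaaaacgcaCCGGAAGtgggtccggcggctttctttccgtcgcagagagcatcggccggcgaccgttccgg
Of the genes printed, MRPL20 held a pair of ETS matches, and MRPL18, MRPL28 and MRPL3 held 1 each. The YY1 letters lay after the start in MRPS35 and MRPS24, and MRPL32 held the NRF1 letters upstream of a pair of SP matches. MRPL51 held SP matches only in this stretch, and an ETS match elsewhere in its window. MRPL41, MRPL34, MRPL44, MRPL11, MRPL12 and MRPS7 held none of these letters in the printed stretch. A match is a description of letters and does not show that a factor binds.

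Over the 85 windows, 38.8% held the ETS letters, against 16.1% of 15795 windows of the tested genes and 10.3% of all 35116 windows in the table. The YY1 letters were in 29.4% of the windows, against 8.86% and 5.55%. Their positions differed, because 31 of 45 ETS matches lay within 100 bases before the start and 20 of 26 YY1 matches lay after it. The NRF1 letters were in 7.06% (4.58% of the tested genes' windows and 3.05% of all windows). SP letters were in 60.0% of the windows and in 65.5% of those of the tested genes, and the TATA letters were in 3.53% and 6.33%. Windows of 1 gene overlap, since 11 genes had more than 1 window, and the shares carry no test.

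**Figure D1:**
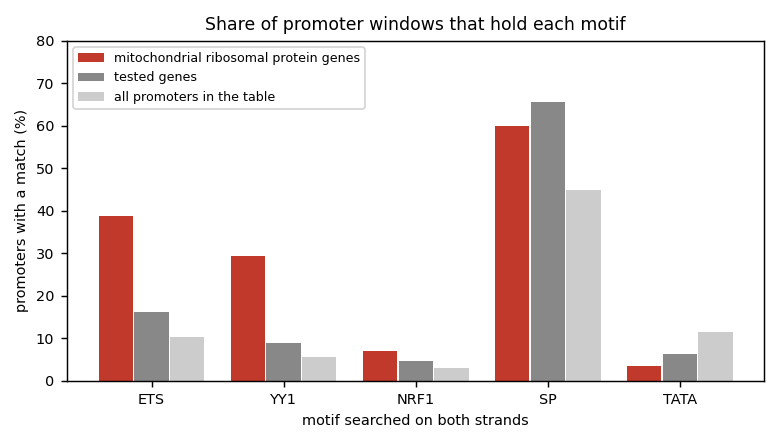
Bars give the percent of 300-base promoter windows with at least 1 match to each motif on either strand, for 85 windows of mitochondrial ribosomal protein genes, 15795 windows of tested genes and all 35116 windows. The ETS and YY1 bars of the mitochondrial ribosomal protein genes (38.8% and 29.4%) stand above both other bars, and the SP bar (60.0%) lies between them.

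DAZL, the overexpressed gene, had TPM values of 0 and 0.0333 in control against 102 and 101 in oeDAZL. Transcripts of mitochondrial DNA took 12.5% and 13.3% of TPM in control and 14.1% and 13.9% in oeDAZL, and 28019 and 27729 genes were above 0 in control against 26695 and 27350 in oeDAZL. Read depth is not kept in TPM. Germ cell markers were low apart from TFAP2C (44.3 to 53.9 TPM), PDPN and ITGA6: SOX17 lay between 2.52 and 3.35 TPM and NANOS3 between 0.732 and 1.66 TPM in the 4 libraries, and DDX4 was listed at 0 in all of them. Markers of amnion were abundant, with GABRP at 1208 to 1408 TPM and HAND1 at 958 to 1250.0 TPM. The summed level of the 8 amnion and trophoblast markers was 3595 and 3450 TPM in control and 3654 and 3701 TPM in oeDAZL, with a median log2 fold change of -0.06. Markers are called higher or lower here at an unadjusted P of at most 0.05 (limma). At that P 5.02% of all tested genes were higher and 15.2% lower. Among the markers of these lists, only COL3A1 had an adjusted p under 0.05. HAND1 was higher among these 8, whereas CDX2, VTCN1 and ISL1 were lower, with log2 fold changes of -0.69, -0.38 and -0.49. The summed level of the 10 mesoderm and mesenchyme markers was 2305 and 2200 TPM in control and 1956 and 1983 TPM in oeDAZL. Of the 7 tested, HAND1 was higher and COL3A1, COL1A1 and TBXT were lower, the last 2 with log2 fold changes of -0.55 and -0.97. COL3A1, a fibrillar collagen, fell from 583 and 479 TPM to 224 and 220 TPM (limma adjusted p = 0.034). The summed level of the 10 germ cell markers was 140 and 159 TPM in control and 163 and 159 TPM in oeDAZL, and 1 of the 8 tested, PDPN, was higher, while 6 had fold changes below 0 (median log2 fold change -0.07). Of 5 tested pluripotency markers POU5F1 and TDGF1 were higher and 0 were lower, the other 3 had both oeDAZL libraries below both control libraries, and the median was -0.11. Of 3 tested neural markers NES was higher and PAX6 lower, and of 7 endoderm markers SOX7 and AFP were lower. PAX6 was low throughout, at 3.83 and 1.14 TPM in control and 0.0967 and 0.558 TPM in oeDAZL. AFP had control replicates far apart, at 36.3 and 13.1 TPM, against 8.91 and 11.6 TPM in oeDAZL. HAND1 is in both the amnion and the mesoderm list. The part of these markers, and of the shares above, in the results below was not tested, and in bulk RNA fewer cells of a type and less RNA per cell cannot be told apart.

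The 78 genes together took 0.414% and 0.419% of all TPM in control and 0.423% and 0.431% in oeDAZL. Summed over the genes, TPM came to 4141 and 4192 in control against 4227 and 4309 in oeDAZL. Both oeDAZL sums lay above both control sums, by 1.02-fold on the means (4167 ± 35.8 TPM in control and 4268 ± 58.2 TPM in oeDAZL; SD, n = 2), but the gap between the nearest libraries of the groups was smaller than the gap between replicates of either group. The same order held for the small subunit, with 1297 and 1292 TPM in control and 1324 and 1334 TPM in oeDAZL. Large subunit sums were 2833 and 2886 TPM in control and 2889 and 2962 TPM in oeDAZL, so the lower oeDAZL sum exceeded the higher control sum by less than the gap between replicates. The large subunit sum was 2.18 and 2.23 times the small subunit sum in control and 2.18 and 2.22 times in oeDAZL, and the groups overlapped. With 2 libraries a group these sums were not tested.

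Most individual genes were expressed near the median level of the 78. The median of the mean levels was 51.1 TPM, at the 79.6th percentile of the 16687 tested genes, and 55 of the 78 lay within 2-fold of that median. Mean levels of 7 genes were at least 100 TPM, 35 were from 50 to under 100, 28 from 20 to under 50 and 8 under 20. In every library 76 of the 78 genes were at 10 TPM or more. Across the 78 genes the log2 levels of any pair of libraries correlated with Pearson's r between 0.952 and 0.991, which is across genes that share libraries and is given as a description.

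MRPL51, a large subunit protein specific to mitochondria, had the highest level, at 160 and 169 TPM in control and 177 and 176 TPM in oeDAZL. Next was MRPL12, the stalk protein that contacts translation factors, at 125 and 142 TPM in control and 131 and 146 TPM in oeDAZL. MRPL28, a conserved large subunit protein, was at 114 and 133 TPM in control and 117 and 135 TPM in oeDAZL. The control and oeDAZL libraries overlapped for MRPL12 and MRPL28, whereas MRPL51 lay above MRPL12 in every library. MRPS7, a conserved protein of the head of the small subunit, was at 109 and 120 TPM in control and 106 and 125 TPM in oeDAZL. MRPL3, which lies near the site of peptide bond formation, was at 109 and 107 TPM in control and 114 and 112 TPM in oeDAZL, with both oeDAZL libraries above both control libraries (log2 fold change 0.07, limma adjusted p = 0.522).

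At the other end stood MRPS18B, a small subunit paralog specific to mitochondria, with a mean of 4.41 TPM. MRPL42, a protein specific to mitochondria, was at 8.99 and 9.26 TPM in control and 8.0 and 7.28 TPM in oeDAZL. MRPL50, also specific to mitochondria, was at 11.3 and 10.3 TPM in control and 11.3 and 10.9 TPM in oeDAZL. These low levels showed no common direction between the groups. MRPS17, the counterpart of a bacterial small subunit protein, was at 11.7 and 11.9 TPM in control and 13.9 and 13.0 TPM in oeDAZL. MRPS36, the dehydrogenase component, was at 11.3 and 13.9 TPM in control and 14.2 and 13.8 TPM in oeDAZL. The mean level of the highest gene was 38.8 times that of the lowest.

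**Figure D2:**
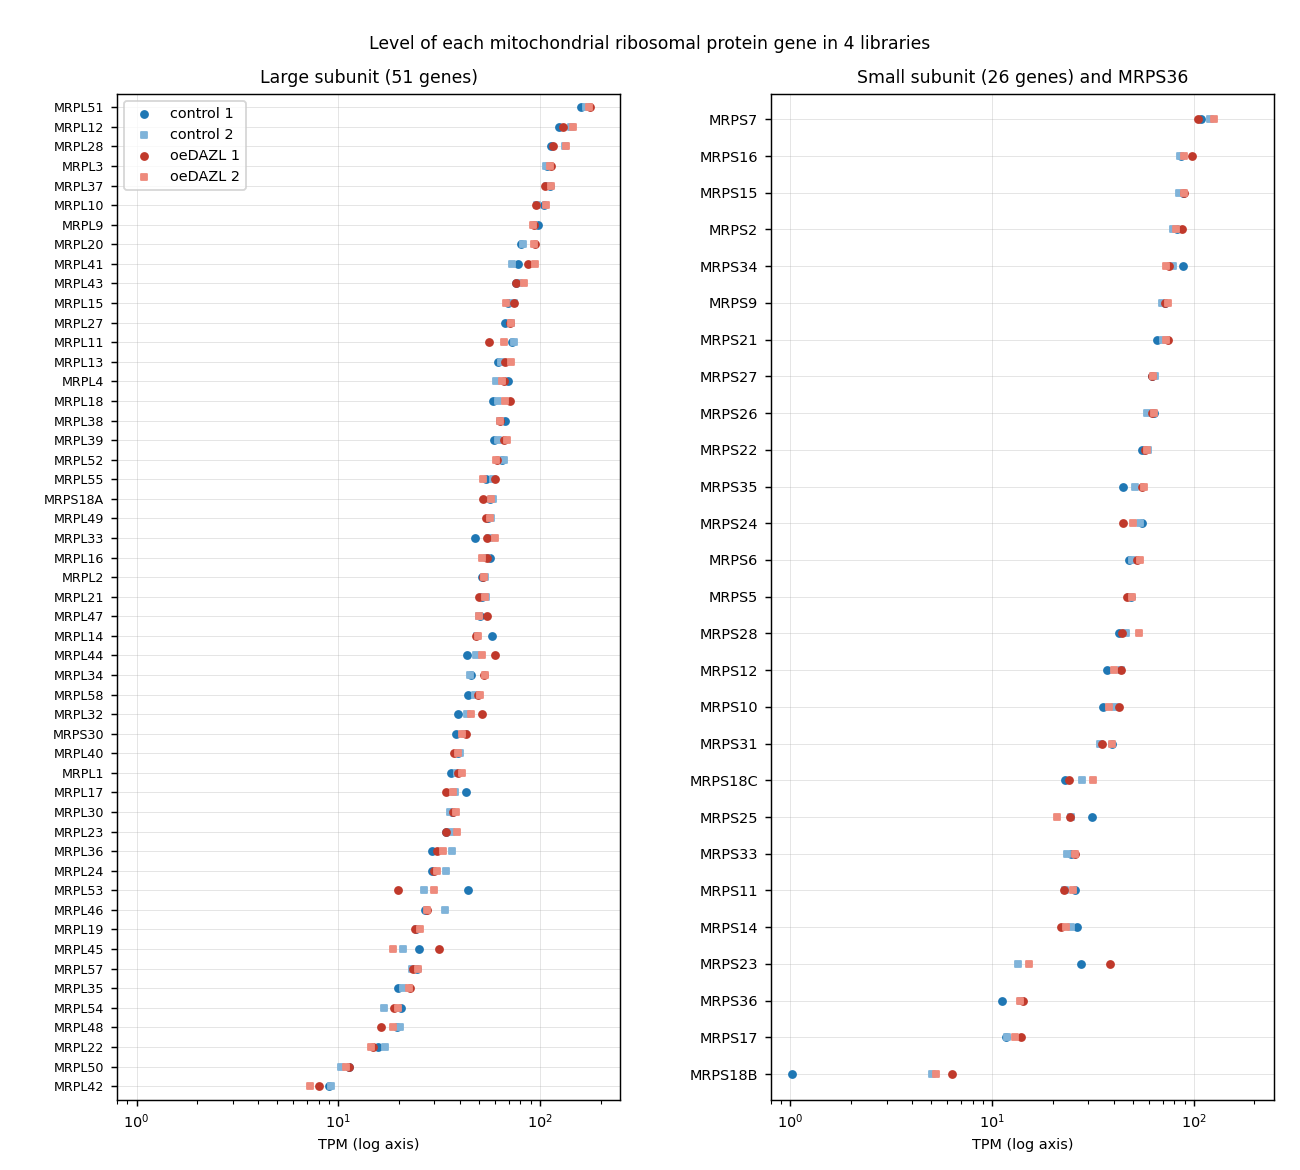
Points give the TPM of each gene in each of the 4 libraries on a log axis, with genes ordered by mean level, large subunit at left and small subunit with MRPS36 at right (circles, replicate 1; squares, replicate 2). The 4 points of most genes lie close together, whereas those of MRPL53, MRPL45, MRPS23 and MRPS18B spread widely.

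Replicates of 1 group agreed closely for most genes, with a median ratio of the higher to the lower replicate of 1.07 in control and 1.06 in oeDAZL. The ratio reached 1.3 in 3 genes in control and in 4 genes in oeDAZL. MRPS23, a small subunit protein specific to mitochondria, was at 27.5 and 13.5 TPM in control and 38.2 and 15.2 TPM in oeDAZL. Its first replicates were thus above its second replicates in both groups, by 2.05-fold and 2.52-fold, and the groups overlapped (log2 fold change 0.31 ± 0.47 SE, limma adjusted p = 0.741). Within each replicate number the oeDAZL library was the higher one. Leaving out 1 library moved the log2 fold change to between -0.33 (without oeDAZL replicate 1) and 0.95 (without oeDAZL replicate 2, where it passed). MRPL45, which anchors the ribosome to the inner membrane near the exit of the nascent chain, was at 25.3 and 21.1 TPM in control and 31.5 and 18.8 TPM in oeDAZL, and its first replicates were likewise the higher ones. Its log2 fold change went from 0.07 to 0.43 without oeDAZL replicate 2, where it passed, and to -0.28 without oeDAZL replicate 1. MRPL53, a protein of the stalk region specific to mitochondria, was at 44 and 26.6 TPM in control and 19.9 and 29.9 TPM in oeDAZL. Of the 496 bases of its transcript, 492 are shared with CCDC142 (mean 13.3 TPM) on the same strand. How far reads of these genes can be told apart was not tested. The log2 fold change of MRPL53 was -0.47, and it was -0.82 without control replicate 2 and -0.755 without oeDAZL replicate 2. The difference was smaller without control replicate 1, its highest library, or without oeDAZL replicate 1, its lowest library.

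MRPS18B had the largest fitted difference of the 78, a log2 fold change of 0.95 ± 0.48 (SE; limma adjusted p = 0.324). Its values were 1.02 and 5.05 TPM in control and 6.30 and 5.26 TPM in oeDAZL, so that the difference lay in control replicate 1. Without that library the log2 fold change was 0.16, whereas without control replicate 2 it was 1.74 and MRPS18B passed both the adjusted threshold of 0.05 and the 2-fold rule. The annotation also lists 6 copies of this gene, all at 0 here, and the study kept uniquely mapped reads only. Whether those copies were in the genome used for mapping is not given in the sources used here, and their part in the low level was not tested. The small and large subunits each hold a form of the bacterial S18 protein family beside it. MRPS18C was at 23.1 and 27.9 TPM in control and 24.1 and 31.6 TPM in oeDAZL. MRPS18A, the form in the large subunit, was at 56.8 and 58.3 TPM in control and 52.2 and 57.4 TPM in oeDAZL. The groups overlapped for MRPS18A and MRPS18C, and MRPS18B stood below both of its paralogs in every library.

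Between oeDAZL and control the 78 genes differed little, while 65.3% of all tested genes had a fold change below 0 on this scale. The median log2 fold change, computed on log2(TPM + 1), which understates the change of low genes, was 0.04 for the 78 genes, with quartiles at -0.04 and 0.11. It was -0.08 over all 16687 tested genes, which median-of-ratios scaling moved to -0.00 and the 78 genes to 0.12. The fold change was above 0 in 50 of the 78, or 64.1%, against 34.7% of all tested genes. Among genes with a mean of at least 20 TPM, the median was -0.04 over 7371 tested genes, 40.6% of which were above 0, and 0.04 over 70 of the mitochondrial ribosomal protein genes, 45 of which were above 0. The absolute log2 fold change was under 0.1 in 42 of the 78 and reached 0.3 in only 3, MRPS18B, MRPL53 and MRPS23, each of which had replicates far apart.

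The median log2 fold change was 0.05 over small subunit genes and 0.02 over large subunit genes. Without oeDAZL replicate 2 these medians were 0.02 and -0.012. By origin the medians were 0.06 for the 16 conserved and 0.03 for the 10 mitochondria-specific small subunit genes, and 0.02 for the 30 conserved and 0.02 for the 21 mitochondria-specific large subunit genes. The 6 genes of the stalks had a median of 0.03 and the 7 around the exit tunnel one of 0.06. For 10 genes known from inherited defects of mitochondrial translation, among them MRPS22, MRPS34 and MRPL44, the median was 0.06. None of these medians was tested. Across the 78 genes the log2 fold change had a Spearman correlation of -0.27 with the GC content of the transcript and of -0.07 with its length, as a description over genes that share the 4 libraries.

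**Figure D3:**
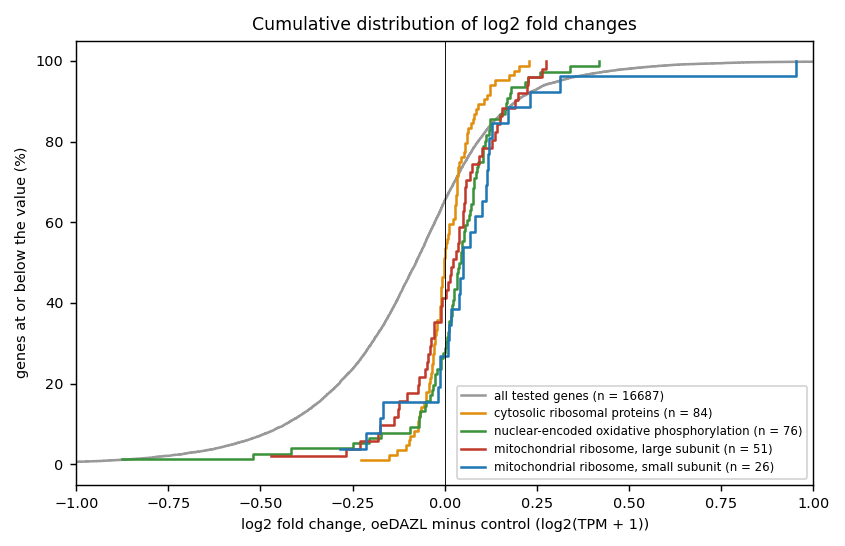
Lines give the percent of genes at or below each log2 fold change (oeDAZL minus control) for all tested genes and for 4 groups of genes, with values beyond 1 in either direction not drawn. The lines of the small and large subunits rise steeply near 0 and to the right of the line of all tested genes, at medians of 0.05 and 0.02 against -0.08.

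At an unadjusted P of at most 0.05 (limma), 7 of the 78 genes, or 8.97%, were higher in oeDAZL, where 5.02% of all tested genes were higher. Lower in oeDAZL were 2 genes, or 2.56%, where 15.2% of all tested genes were lower. None of the 78 passed a Benjamini-Hochberg adjusted p under 0.05, which 0.0599% of tested genes passed, and 9 had an unadjusted P of at most 0.05. None reached a fold change of at least 2 at that P, which 0.689% of tested genes did. In 22 genes the lower oeDAZL library exceeded the higher control library (28.2%; 16.0% of all tested genes), in 12 the reverse held (15.4%; 38.4% of all tested genes), and the groups overlapped in 44. With another scaling of the libraries, the median of ratios, 17 of the 78 were higher and 0 lower, while over all tested genes the counts went from 838 higher and 2530 lower to 1661 higher and 1528 lower.

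Of the 7 genes higher in oeDAZL, 6 belong to the large subunit. MRPL41, a protein of the large subunit specific to mitochondria with 2 exons on chromosome 9 (137551879 to 137552555), was at 78.1 and 73.0 TPM in control and 87.0 and 94.8 TPM in oeDAZL. Its means were 75.6 ± 3.61 and 90.9 ± 5.57 TPM (SD, n = 2), and the log2 fold change was 0.26 ± 0.07 (SE; limma adjusted p = 0.146). This was the lowest p among the 78, and the groups did not overlap. MRPL34, a small conserved protein on chromosome 19 (17305872 to 17306843), was at 45.3 and 45.2 TPM in control and 52.8 and 53.4 TPM in oeDAZL (log2 fold change 0.23, adjusted p = 0.154). MRPL20, a conserved protein that binds the large rRNA early in assembly of the bacterial ribosome, was at 80.6 and 82.6 TPM in control and 94.3 and 93.4 TPM in oeDAZL (0.20 on the log2 scale, adjusted p = 0.156). Replicates of MRPL34 and MRPL20 differed by far less than the groups did. MRPL20 lies on chromosome 1 (1401909 to 1407293) and shares 138 exon bases with MRPL20-AS1 on the opposite strand, which was at 26.4 and 28.7 TPM in control and 23.7 and 25.3 TPM in oeDAZL. Whether the counting used strand is not given in the sources used here.

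MRPL44, a protein near the exit tunnel with a fold related to RNase III, was at 43.5 and 48.2 TPM in control and 59.8 and 51.6 TPM in oeDAZL (log2 fold change 0.27, limma adjusted p = 0.2). MRPL18, the counterpart of a bacterial protein that binds 5S rRNA, was at 58.8 and 62.2 TPM in control and 71.1 and 67.3 TPM in oeDAZL (0.19 on the log2 scale, adjusted p = 0.203). MRPL32, a conserved protein that is cleaved by the m-AAA protease before assembly, was at 39.5 and 43.5 TPM in control and 51.5 and 45.8 TPM in oeDAZL (0.22 on the log2 scale, adjusted p = 0.236). In these 3 genes the first oeDAZL replicate was the highest library and the first control replicate the lowest. MRPS35, the small subunit gene among the 7 and specific to mitochondria, was at 44.6 and 51.1 TPM in control and 55.6 and 56.8 TPM in oeDAZL (0.23 on the log2 scale, adjusted p = 0.21). MRPL39, a relative of threonyl-tRNA synthetases near the exit tunnel, came next but did not pass, at 59.3 and 62.0 TPM in control and 66.1 and 68.7 TPM in oeDAZL (adjusted p = 0.259).

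MRPL11, which forms the base of the stalk, was lower, at 72.7 and 74.1 TPM in control and 55.8 and 66.4 TPM in oeDAZL (log2 fold change -0.27, limma adjusted p = 0.196). It lies on chromosome 11 (66435075 to 66438848), and its means were 73.4 ± 0.978 TPM in control and 61.1 ± 7.47 TPM in oeDAZL (SD, n = 2). MRPS24, the counterpart of a bacterial protein at the mRNA entry of the small subunit, was at 55.6 and 54.2 TPM in control and 44.6 and 50.1 TPM in oeDAZL (log2 fold change -0.21, adjusted p = 0.216). In both genes the first oeDAZL replicate was the lowest library. MRPS34, a small subunit protein specific to mitochondria, was at 88.9 and 79.3 TPM in control and 75.8 and 72.7 TPM in oeDAZL and did not pass (adjusted p = 0.262). The other genes with negative fold changes and the lowest P were MRPS25, MRPS14, MRPL17, MRPL42 and MRPL48, all with both oeDAZL libraries below both control libraries and with adjusted p between 0.302 and 0.363.

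None of the 9 calls held without each of the 4 libraries in turn. MRPL41 passed in 3 of the 4 reduced sets and lost its call without oeDAZL replicate 2, 4 genes passed in 2 sets and 4 in 1 set. The fold changes of MRPL34 (0.22 to 0.23 on the log2 scale) and MRPL20 (0.18 to 0.22) moved little over these sets, which have 1 library fewer. Wider ranges were seen for MRPL11 (-0.39 to -0.14), MRPS24 (-0.29 to -0.13) and MRPL44 (0.17 to 0.38). The same held for MRPS35 (0.13 to 0.33) and MRPL32 (0.14 to 0.31). MRPL41 lay at 0.20 to 0.32 and MRPL18 at 0.15 to 0.23, and none of these fold changes changed sign. Without control replicate 1 there were 3 higher and 1 lower of the 78, where 4.67% of all tested genes were higher and 10.3% lower. Without control replicate 2 there were 13 and 5 (8.04% and 19.7% of all tested genes). Without oeDAZL replicate 1 there were 1 and 0 (2.14% and 7.35%), and without oeDAZL replicate 2 there were 4 and 3 (3.16% and 9.64%).

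**Figure D4:**
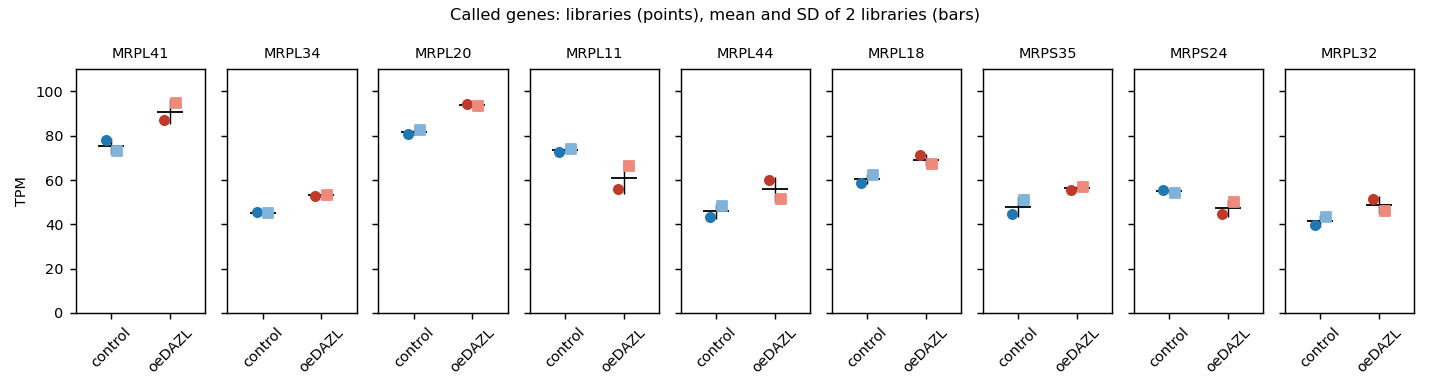
Points give the TPM of the 9 genes with an unadjusted P of at most 0.05 in each library (circles, replicate 1; squares, replicate 2), with axes from 0, and black bars give the mean and SD of 2 libraries. The groups do not overlap in any panel; MRPL11 and MRPS24 are lower in oeDAZL, and the other 7 are higher.

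**Figure D5:**
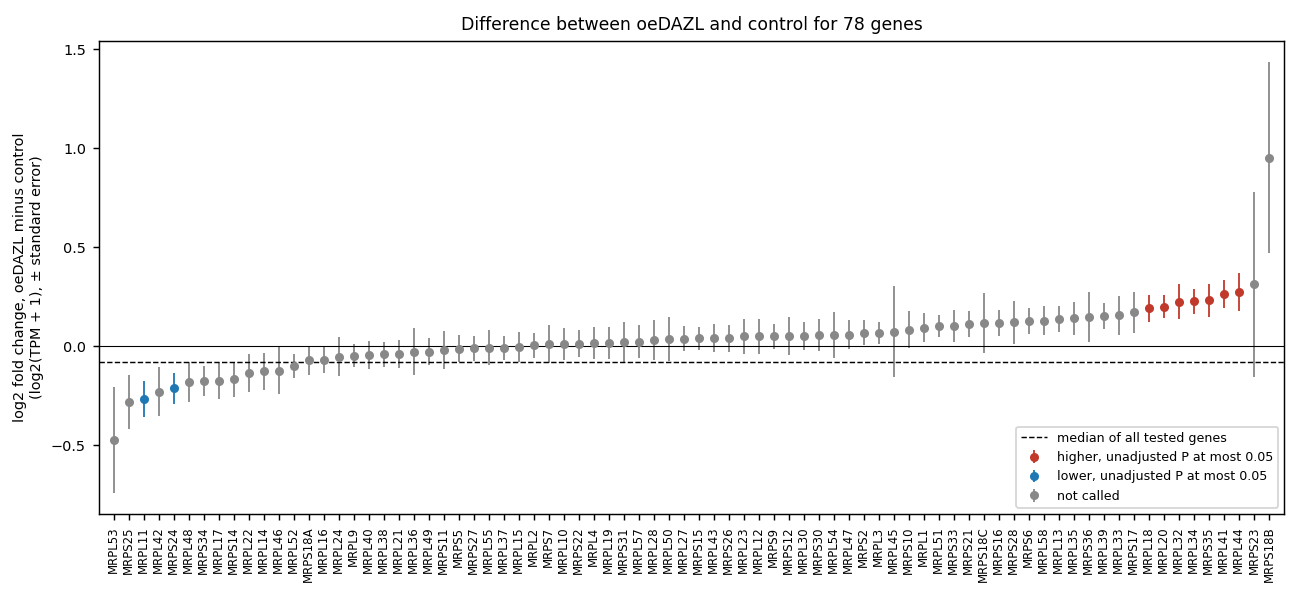
Points give the log2 fold change of each of the 78 genes with its standard error from limma, ordered from lowest to highest, and the dashed line marks the median of all tested genes (-0.08). Of the points, 50 lie above 0 and 42 lie within 0.1 of 0, and the widest error bars belong to MRPS18B, MRPS23, MRPL53 and MRPL45.

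Exons of 31 of the 78 genes overlap exons of another annotated gene, 15 of them on the same strand and 22 on the opposite strand, with 6 genes in both counts. MRPS18C shares 1296 bases with ABRAXAS1 and MRPS25 shares 850 bases with NR2C2, both on the opposite strand. Levels of such genes may include reads of the partner. Among the pseudogenes with a mean of at least 1 TPM, MRPS31P4 was at 14.3 and 11.2 TPM in control and 14.7 and 12.8 TPM in oeDAZL. MRPS31P5 was at 8.40 and 7.74 TPM in control and lower in oeDAZL, at 6.21 and 6.02 TPM (limma adjusted p = 0.214). MRPS31, from which both derive, was at 39.5 and 34.1 TPM in control and 35.1 and 39.4 TPM in oeDAZL. MRPL45P2 was at 9.05 and 10.7 TPM in control and 9.05 and 7.31 TPM in oeDAZL and did not pass. MRPS18AP1 and MRPL3P1, with means of 1.08 and 1.03 TPM, did not pass either.

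A further 5 mitoribosomal proteins carry other names. AURKAIP1, a small subunit protein first described as a partner of Aurora A kinase, was at 139 and 140 TPM in control and 143 and 152 TPM in oeDAZL. DAP3, the GTP-binding protein of the small subunit, was at 94.9 and 87.0 TPM in control and 85.1 and 85.0 TPM in oeDAZL. The others are PTCD3, CHCHD1 and GADD45GIP1, none of the 5 passed in either direction by limma at an unadjusted P of at most 0.05, and the median log2 fold change was 0.05. The rRNAs the proteins bind are copied from mitochondrial DNA. MT-RNR1, the rRNA of the small subunit, was at 1032 and 972 TPM in control and 949 and 964 TPM in oeDAZL, and MT-RNR2, that of the large subunit, at 8966 and 9333 TPM in control and 8816 and 8704 TPM in oeDAZL. Both oeDAZL libraries were below both control libraries for each rRNA, and neither passed (adjusted p = 0.525 and adjusted p = 0.611). MT-TV, which lies between them in mitochondrial DNA, went the other way without passing. It was at 124 and 152 TPM in control and 156 and 161 TPM in oeDAZL. Values of rRNA depend on how rRNA or poly(A) RNA was selected, which is not given in the sources used here.

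The other genes of mitochondrial gene expression were taken from fixed lists, and over the 93 of them that were tested 5 (5.38%) were higher and 11 (11.8%) lower at the same P, with a median of -0.02. These shares are near those over all tested genes, 5.02% and 15.2%, and the median turned to 0.063 under median-of-ratios scaling. Among 28 assembly factors 2 (7.14%) were higher and 3 (10.7%) lower. MTERF4 and NSUN4, which act together in maturation of the large subunit, were both higher, MTERF4 from 30.9 and 31.3 TPM to 43.4 and 43.8 TPM (log2 fold change 0.47, adjusted p = 0.0896) and NSUN4 from 15.3 and 13.8 TPM to 21.3 and 18.2 TPM (0.41, adjusted p = 0.147). METTL17, RCC1L and MTG1 were lower, METTL17 from 70.9 and 67.7 TPM to 50 and 61.1 TPM (-0.32 on the log2 scale, adjusted p = 0.178). NSUN4 and MTERF4 were thus further from 0 than any of the 9 called ribosomal proteins.

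Of 17 tested translation factors 1 was higher and 3 were lower. TUFM, the elongation factor that brings aminoacyl-tRNA to the ribosome, was higher, at 199 and 204 TPM in control and 233 and 217 TPM in oeDAZL (adjusted p = 0.216). MTIF3, an initiation factor, was at 54.9 and 52.5 TPM in control and 41.1 and 42.9 TPM in oeDAZL (-0.35 on the log2 scale, adjusted p = 0.0984). MRRF, the recycling factor that frees the ribosome from the message, was at 25.1 and 26.9 TPM in control and 16.7 and 20.6 TPM in oeDAZL (-0.46 on the log2 scale, adjusted p = 0.131). The third gene that was lower was the release factor MTRF1. These 3 are 17.6% of the list, near the 15.2% over all tested genes, and the median log2 fold change of the list was 0.07. None of the 20 mitochondrial aminoacyl-tRNA synthetases and amidotransferase subunits was higher and 4, or 20%, were lower (VARS2, WARS2, CARS2 and AARS2), with a median of -0.08, equal to that of all tested genes at this precision.

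Among 15 tested genes of mitochondrial DNA replication and transcription, 1 (6.67%) was lower and none higher, against 15.2% and 5.02% of all tested genes. This was POLG, the catalytic subunit of the DNA polymerase, from 59.9 and 51.4 TPM to 42.7 and 43.6 TPM (limma adjusted p = 0.126). Among 8 tested nuclear regulators, PPARGC1A, a coactivator of mitochondrial biogenesis, was at 2.62 and 3.83 TPM in control and 5.68 and 5.68 TPM in oeDAZL (adjusted p = 0.155), and MYC was at 28.3 and 33.8 TPM in control and 37.0 and 37.4 TPM in oeDAZL (adjusted p = 0.224). Both were higher. Of the factors whose letters were searched in the promoters, GABPA, YY1 and NRF1 were in the list and did not pass. GABPA was at 20.9 and 18.3 TPM in control and 18.5 and 19.5 TPM in oeDAZL, YY1 was at 48.9 and 46.8 TPM and at 46.5 and 47.2 TPM, and NRF1 was at 18.1 and 16.8 TPM and at 15.6 and 14.2 TPM, with both oeDAZL libraries the lower ones.

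The proteins of the cytosolic ribosome and of the respiratory chain served as the nearest groups for comparison. Of 84 tested cytosolic ribosomal protein genes 4 (4.76%) were higher and 0 lower, against 5.02% and 15.2% of all tested genes, with a median log2 fold change of -0.00. Of 76 nuclear-encoded genes of oxidative phosphorylation 6 (7.89%) were higher and 4 (5.26%) lower, with a median of 0.04. Differences between these groups and the 78 genes were not tested. The summed level of the oxidative phosphorylation genes was 9212 and 9540 TPM in control and 9736 and 9373 TPM in oeDAZL, and the groups overlapped. Fold changes were above 0 in 55 of these 76 genes, or 72.4%, and in 31.6% of them both oeDAZL libraries exceeded both control libraries, against 64.1% and 28.2% of the 78 genes. Among 5 proliferation markers TOP2A was higher (180 and 178 TPM in control, 198 and 196 TPM in oeDAZL, adjusted p = 0.216) and 0 were lower. For MKI67 both oeDAZL libraries (53.6 and 51.1 TPM) stood under both control libraries (54.4 and 56.3 TPM), without passing. The sums of the 5 markers were 699 and 706 TPM in control and 749 and 750 TPM in oeDAZL. Their part in the higher sums of the mitochondrial ribosomal protein genes was not tested.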

How the data were processed

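RNA sequencing of 2 control and 2 oeDAZL libraries was analysed, and the other 6 samples of the series (miRNA sequencing) were not analysed here. The authors deposited TPM per gene, 1 column per library, with replicates not pooled. Per the study's methods, only uniquely mapped reads were kept. The submitters' processing notes name Trim Galore 0.6.4, cutadapt 1.18, HISAT2 2.1.0, StringTie 2.1.4 and the build hg38, and the annotation release is not given in the sources used here. TPM keeps no depth, so depth is unknown, and precision comes from the spread of 2 libraries a group. Limma draws the spread of each gene toward a trend over all tested genes. TPM is relative within a library, so a gene's value moves with all others.

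Of 65003 entries, 45 pseudoautosomal copies on chromosome Y and 18 repeats were dropped. A mean of 1 TPM or more was required, which left 16687 genes, and log2(TPM + 1) was fitted in limma 3.58.1 (R 4.3.3; lmFit and eBayes, trend on, no block) as oeDAZL minus control, and P-values were adjusted by Benjamini-Hochberg over all of them. The code of the fit was run on simulated data in which the spread was shuffled over genes. Such data cannot show how well the fit suits these libraries. The study used DESeq2 on counts, which were not used here. Calls are at an unadjusted P of at most 0.05, as the study's rule is, and its fold limit of 2 is given beside them. Coordinates and exons are of the Ensembl canonical transcript in GENCODE release 44, and promoters are RefSeq's on GRCh38.p14.

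The genes, lists and tests were chosen with earlier results of these data known. Values were given for the 5 highest and 5 lowest genes, the 8 lowest P in each direction (in part as a range), the MRPS18 paralogs, those with replicates far apart, and up to 4 genes a list by lowest P, and further markers and regulators were named after their values were seen. Alternatives were another pseudocount (0.1), no filter or a mean of at least 5 TPM, other scalings (median of ratios, quantile, TPM without mitochondrial genes), limma without trend, a replicate block and leaving out each library.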

Additional observations from a re-analysis of the deposited data

How the results depend on the processing

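The median log2 fold change of the 78 genes stayed above 0 under every alternative tried and above that of all tested genes by 0.07 to 0.14. It was 0.12 under median-of-ratios scaling, 0.072 under quantile normalization, and 0.011 to 0.041 when 1 library was left out. For the small subunit these medians were 0.13, 0.095 and 0.020 to 0.063, and for the large subunit 0.10, 0.052 and -0.012 to 0.037. The log2 ratio of the summed TPM was 0.03, and 0.052 without mitochondrial genes, 0.12 under median-of-ratios scaling and 0.02 to 0.05 when 1 library was left out. The count of the 78 that were higher, 7, became 17 under median-of-ratios scaling, 12 under quantile normalization, 2 with limma without trend, 1 to 13 when 1 library was left out and 0 at an adjusted p under 0.05. The count that were lower, 2, became 1 without a filter on TPM, 0 under median-of-ratios scaling, 1 under quantile normalization, 0 with limma without trend, 0 to 5 when 1 library was left out and 0 at an adjusted p under 0.05. Over the other genes of mitochondrial gene expression, 5 higher became 11 (median of ratios), 9 (quantile) and 3 with limma without trend, and 2 to 7 when 1 library was left out. Their 11 lower became 5, 6 and 6, and 3 to 13. The median log2 fold change of these other genes, -0.02, became 0.063 (median of ratios) and 0.052 (quantile). It ranged from -0.055 to 0.014 when 1 library was left out. A fit with a library left out has 1 library in a group, whose spread is taken to be that of the other group. The causes were not tested.

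Replicate numbers are shared by the groups, and whether they pair the samples is not known. Same-numbered libraries deviated with a correlation of -0.10 over 16687 genes, but with 2 libraries a group this cannot settle the question. With a replicate block 6 of the 78 were higher and 2 lower, 6 of these 8 were among the 9 calls, and the other 2 were MRPS23 (higher) and MRPS25 (lower). With the numbers crossed, a pairing chosen after seeing the data, 8 were higher and 4 lower, 2 of them at an adjusted p under 0.05. Without control replicate 2, 1 of the 78 (MRPS18B) passed at an adjusted p under 0.05 and 2-fold, and the remaining alternatives gave no adjusted or 2-fold call among them. Depth is not kept in TPM, and 2 libraries a group limit what can be called.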
